A study of Mus musculus with 6 samples.

Results

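The genes described here encode the collagens, laminins and integrins of mouse neural stem cells, with fibronectin, the nidogens and perlecan (Fn1, Nid1, Nid2 and Hspg2). They were taken by gene symbol from the array's annotation, which gave 85 genes of 18193 measured, and each was read from its probe set of highest mean signal. Total RNA from 6 neural stem cell lines, described as independent, was hybridised to 1 Affymetrix array per line: 3 lines labelled FoxO-null and 3 labelled wild-type. FoxO proteins are transcription factors that are kept in the cytoplasm when insulin or growth factors activate Akt. The labels give no strain, age, sex, Cre driver or list of deleted FoxO genes, and name no treatment. Values are MAS5 signals, a linear probe set intensity that had been scaled to a common target on every array. Arrays are named after their labels, FoxO-null 1 to 3 and wild-type 1 to 3. Each log2 fold change is the mean of the lines labelled FoxO-null less that of the lines labelled wild-type, on the scale of log2(signal + 5.94), and is given ± the standard error of the limma fit.

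A basement membrane is a sheet of laminin trimers, each of an alpha, a beta and a gamma chain, and a network of collagen IV, joined by nidogens and perlecan. Fibrillar collagens form the fibres of connective tissue. Integrins are receptors of an alpha and a beta chain that bind these proteins outside the cell and link them to the actin cytoskeleton. In the brain, basement membranes lie under the meninges and around vessels, neural stem and radial glial cells send endfeet to them, and the laminin receptor of alpha 6 and beta 1 chains is a known surface marker of these cells.

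No member passed a limma adjusted p under 0.05, against 0.0395% of all 12663 genes tested (5 genes). Of the 85 members, 55 had enough signal to be tested, and 7 of them (12.7%) had an unadjusted limma p under 0.05, where 10.2% of all genes did. The 7 were the laminin chain genes Lama4, Lama5 and Lamc1 and the nidogen gene Nid2, with lower signals under the FoxO-null label, and the integrin gene Itgb8 and the collagen genes Col4a5 and Col11a2, higher there. Without wild-type 1, the number lower was 11, and without wild-type 2 it was 1. The 3 higher members stand against 5.31% of all genes called in that direction and the 4 lower ones against 4.90%. Of the 4, Lama4 and Nid2 had enough signal to be tested only through the wild-type lines. The share of members called was close to the share of all genes, and the median log2 fold change was -0.043 over the 55 members and 0.0099 over all genes. Groups that did not overlap were found for 1 tested member in the higher direction (8.08% of all genes) and for 3 in the lower (7.93%).

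**Figure D1:**
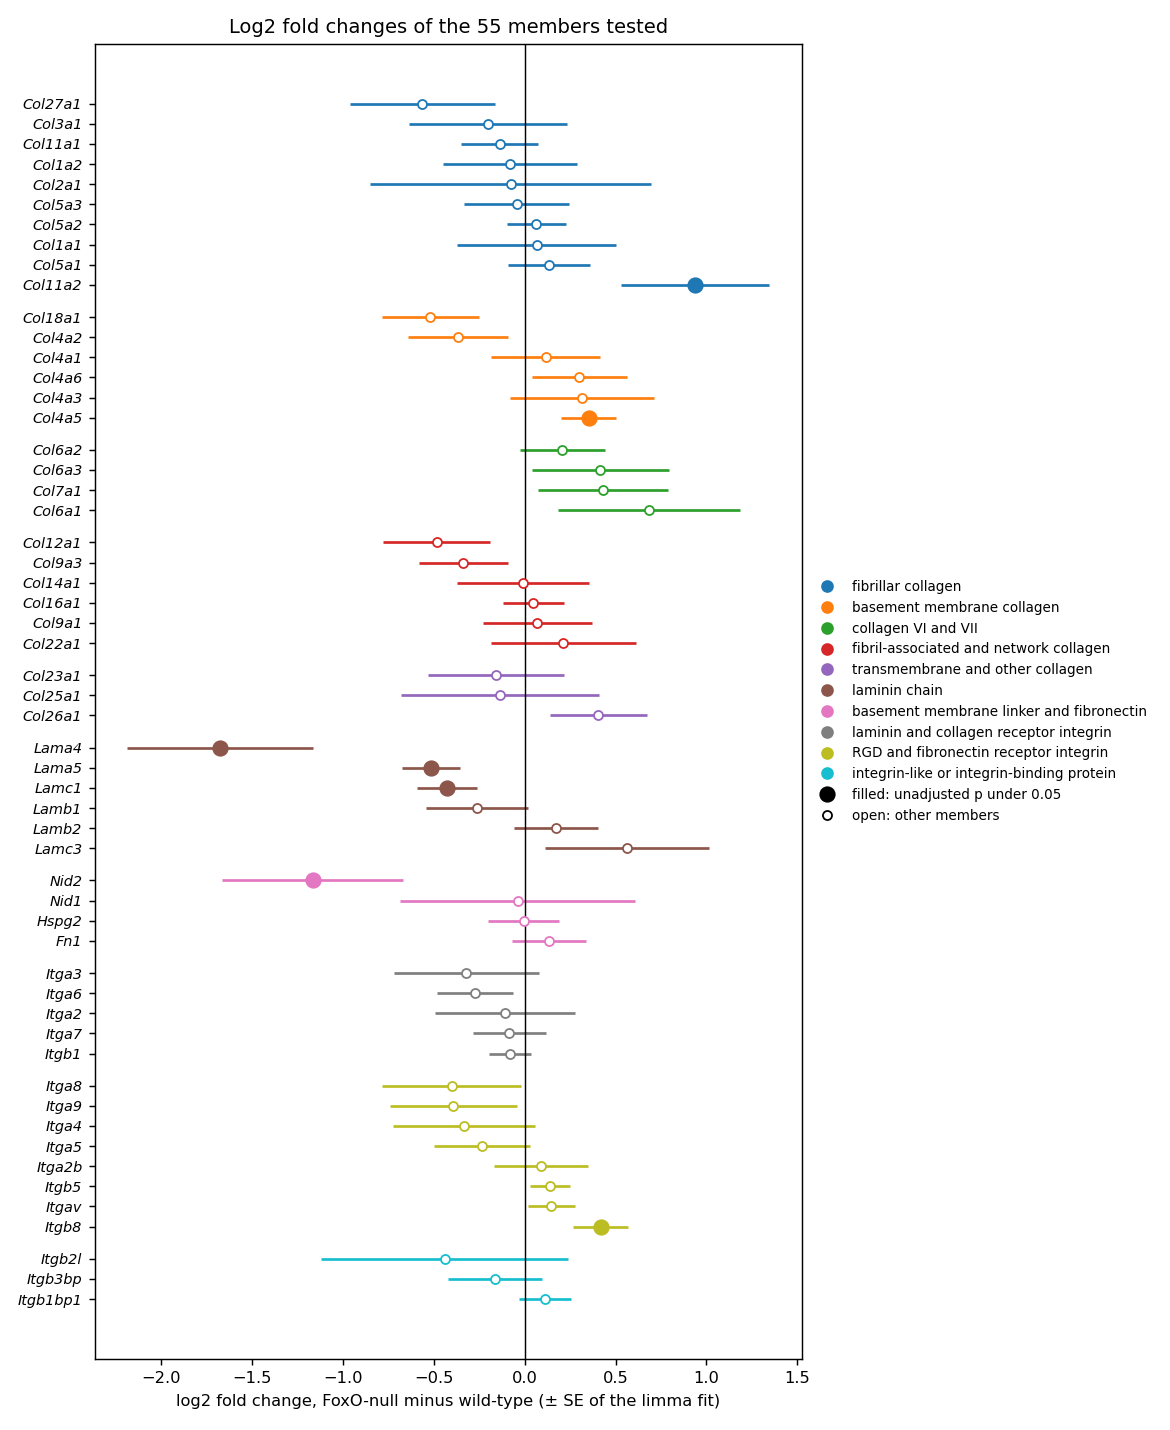
Log2 fold change, positive where FoxO-null lines are higher (x axis), with its standard error for each of the 55 members tested (y axis), coloured by role, with filled points for an unadjusted limma p under 0.05. Of the 6 laminin chains 3, and 1 nidogen, lie left of 0 as filled points, and the collagens lie on both sides of 0. Lama4 and Nid2 were tested only because of their signal in the wild-type lines.

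Signals of the FoxO genes went against the labels. The brightest Foxo1 probe set read 77.9, 77.8 and 100.3 on FoxO-null 1 to 3, against 20.3, 20.4 and 31.7 on wild-type 1 to 3, and the brightest Foxo3 probe set read 578, 667 and 856 on FoxO-null 1 to 3, against 267, 611 and 507 on wild-type 1 to 3. The brightest Foxo4 probe set read 178, 57.2 and 189.9 on FoxO-null 1 to 3, against 5.56, 4.14 and 17.1 on wild-type 1 to 3. Of 9 probe sets for Foxo1, Foxo3 and Foxo4, 8 had a positive log2 fold change, and in 5 all lines labelled FoxO-null lay above all labelled wild-type. Where those probe sets lie relative to any deleted exon is not known here, and one outside the deleted part checks nothing. Directions below therefore follow the labels only. All 15 measured neural stem cell markers, Nes, Sox2 and Fabp7 among them, stood above the bacterial control probe sets on all 6 arrays, with summed signals of 34987 to 38056 on FoxO-null arrays and 28417 to 36445 on wild-type arrays. Of the 15 markers, 5 (33.3%) were higher under the FoxO-null label at an unadjusted limma p under 0.05, against 5.31% of all genes, and 0 were lower. The 5 were Hes5, Nr2e1, Slc1a3, Msi1 and Prom1, none of them with overlapping groups, and Hes5, a Notch effector gene, was 1 of the 5 genes of the whole fit that passed after adjustment (1.41 ± 0.15, limma adjusted p 0.0163). Their part in the members' values was not tested. The highest of the 27 bacterial controls served as each array's background level: 19.2, 27.6 and 26.9 on FoxO-null 1 to 3, against 14.4, 15.8 and 19.1 on wild-type 1 to 3, so background and label went together.

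Signal above background on all 6 arrays was seen for 34 members, and 12 members did not exceed it on any array. The 30 members left out of the test as too dim had no signal over 37.4. They were 13 collagens (Col4a4, Col6a4, Col6a5, Col8a1, Col8a2, Col9a2, Col10a1, Col13a1, Col15a1, Col17a1, Col19a1, Col20a1 and Col24a1), the laminin chains Lama1, Lama2, Lama3 and Lamb3, 11 integrin chains (Itga1, Itga10, Itgae, Itgal, Itgam, Itgax, Itgb2, Itgb3, Itgb4, Itgb6 and Itgb7), and Itgb1bp2 and Itgbl1. All 6 measured integrins of leukocytes are among them. In these bulk samples fewer cells of a type and less RNA per cell cannot be told apart.

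Laminin chains gave the members of smallest p. Of 10 measured chains, 6 were tested, 3 had an unadjusted limma p under 0.05, all with lower means under the FoxO-null label (4.90% of all genes), and the median log2 fold change of the 6 was -0.34. Of these, Lama4 was tested only because of its signal in the wild-type lines. Lama5 encodes the alpha 5 chain, which is widespread in adult basement membranes. Its signals were 111, 115 and 149.8 on FoxO-null 1 to 3, against 181, 183 and 176 on wild-type 1 to 3. The wild-type lines lay close together and above every line labelled FoxO-null, with means of 125 ± 21.2 in lines labelled FoxO-null and 180.0 ± 3.45 in lines labelled wild-type (SD, n = 3 each); the log2 fold change was -0.51 ± 0.16 (limma adjusted p 0.306). A second Lama5 probe set did not show this: it read 27.8, 54.7 and 103 on FoxO-null 1 to 3, against 77.7, 55.3 and 33.5 on wild-type 1 to 3, with overlapping groups and a log2 fold change of 0.047 ± 0.41. The remaining Lama5 probe set lay under background on every array.

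Lama4, the alpha 4 chain gene typical of vessel and mesenchymal basement membranes, had the largest log2 difference of the 55 members tested and low signals. It read 9.17, 14.4 and 1.91 on FoxO-null 1 to 3, against 19.7, 60.1 and 40.6 on wild-type 1 to 3, a log2 fold change of -1.67 ± 0.51 (adjusted limma p 0.302). Every signal of the lines labelled FoxO-null lay under its array's background level and every wild-type signal above it. By geometric means the signal was at least 1.50-fold lower in the lines labelled FoxO-null. Background was lower on wild-type arrays. Wild-type 1, at 19.7, passed its own level of 14.4 but not those of FoxO-null 2 and 3, 27.6 and 26.9. The gene passed the filter on dim probe sets only through the wild-type lines. Its other probe set, which shares the gene, read 8.42, 9.50 and 1.65 on FoxO-null 1 to 3, against 19.5, 30.4 and 35.3 on wild-type 1 to 3, with the same split and a log2 fold change of -1.50 ± 0.47 in the fit of all probe sets (limma adjusted p 0.492).

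Lamc1 encodes the gamma 1 chain found in most laminin trimers. Its signals were 177, 219 and 197 on FoxO-null 1 to 3, against 227, 338 and 248 on wild-type 1 to 3. The groups did not overlap, though FoxO-null 2 and wild-type 1 lay next to each other, and the log2 fold change was -0.43 ± 0.17 (limma adjusted p 0.412). The common beta chain partners showed no such split. Lamb1 read 31.1, 30.2 and 44.9 on FoxO-null 1 to 3, against 42.9, 49.6 and 37.3 on wild-type 1 to 3, a log2 fold change of -0.26 ± 0.28, and its groups overlapped. Lamb2, the beta 2 chain gene, had a log2 fold change of 0.17 ± 0.23 and Lamc3, the gamma 3 chain gene, one of 0.56 ± 0.45, both with overlapping groups and limma adjusted p of 0.845 and 0.711.

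**Figure D2:**
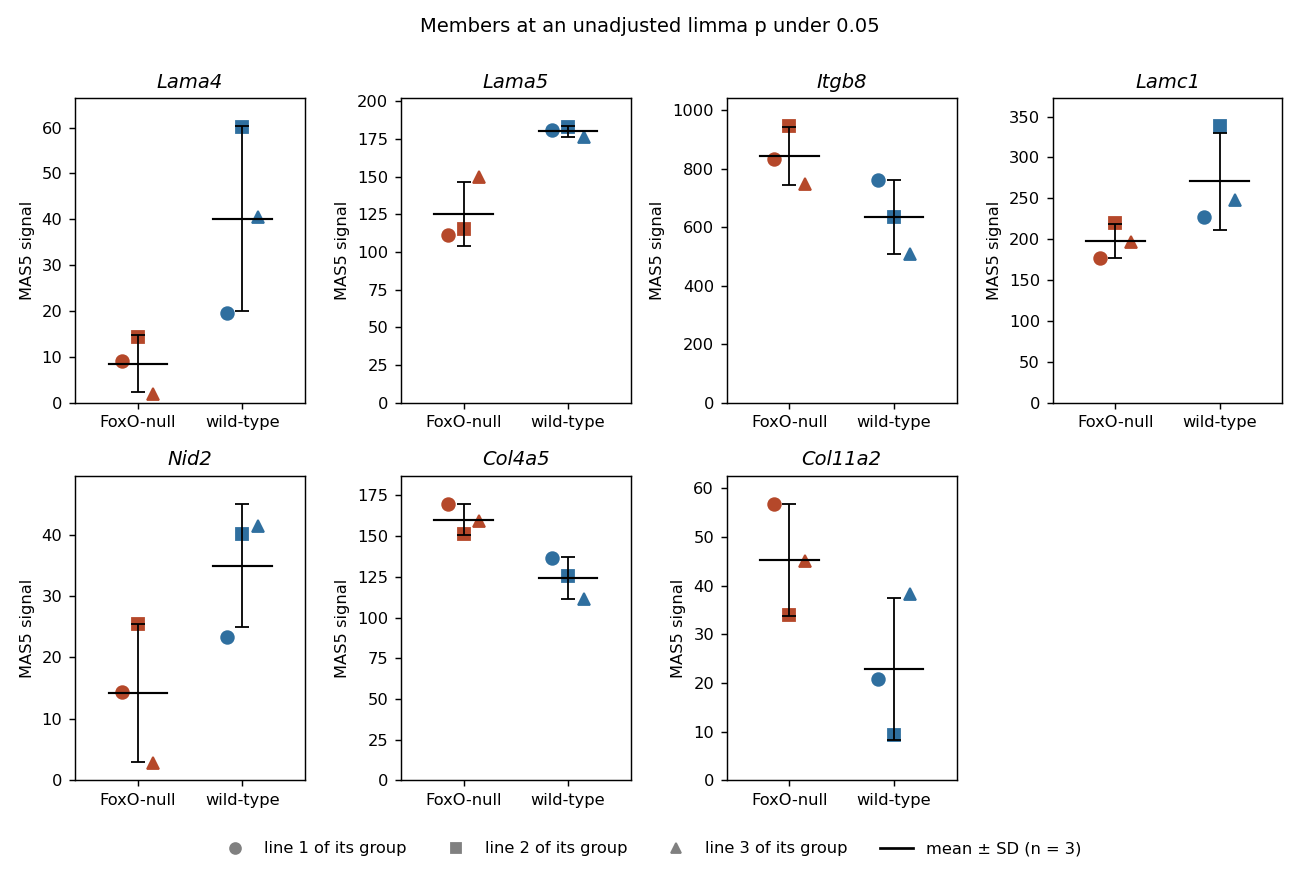
MAS5 signal (y axis, from 0) of the 7 members with an unadjusted limma p under 0.05 in each line (points), with FoxO-null lines to the left of wild-type lines and the mean ± SD of 3 lines in black. Lama4, Lama5 and Lamc1 have all FoxO-null points under all wild-type points and Col4a5 has them above; the groups overlap for Itgb8, Nid2 and Col11a2.

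The nidogens, which bind laminin gamma 1 and collagen IV, differed from each other. Nid2 read 14.5, 25.4 and 2.87 on FoxO-null 1 to 3, against 23.4, 40.1 and 41.4 on wild-type 1 to 3, a log2 fold change of -1.17 ± 0.50 (adjusted limma p 0.452). All signals of the lines labelled FoxO-null lay under background, which by geometric means makes the signal at least 1.40-fold lower there. FoxO-null 2 still lay above wild-type 1, and like Lama4 the gene passed the filter through the wild-type lines. Nid1 read 56.8, 137 and 75.9 on FoxO-null 1 to 3, against 17.9, 212 and 147 on wild-type 1 to 3. Wild-type 2 and wild-type 3 were the highest of the 6 lines and wild-type 1 the lowest, so the log2 fold change was -0.039 ± 0.65 with all lines and -1.02 without wild-type 1 (limma adjusted p 0.28). It was 0.58 without wild-type 2 and 0.32 without wild-type 3. The highest wild-type signal was 11.9-fold the lowest, against 2.40-fold among lines labelled FoxO-null.

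Perlecan, the heparan sulfate proteoglycan encoded by Hspg2, read 172, 297 and 199 on FoxO-null 1 to 3, against 222, 246 and 189 on wild-type 1 to 3, with a log2 fold change of -0.0061 ± 0.19. Fn1, the fibronectin gene, read 197, 306 and 188 on FoxO-null 1 to 3, against 173, 192 and 257 on wild-type 1 to 3, a log2 fold change of 0.13 ± 0.20. Both sets of signals overlapped between groups (limma adjusted p 0.995 and 0.865). A second, dimmer Hspg2 probe set read 46.4, 34.8 and 30.8 on FoxO-null 1 to 3, against 62.8, 82.0 and 48.6 on wild-type 1 to 3 and did not overlap (log2 fold change -0.69 ± 0.29, limma adjusted p 0.649 over all probe sets), so the probe sets of this gene disagree.

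Collagen IV genes lie in pairs, head to head on opposite strands, and the pairs Col4a1 with Col4a2 and Col4a5 with Col4a6 are known to be transcribed away from each other. The start regions of Col4a1, Col4a2 and Col4a5 are shown because they carry this arrangement, and those of Lama5 and Itgb8 because these are the members of smallest p, after Lama4, for which the table of start regions had an entry. Each window runs from 250 bases before to 50 after the annotated start, on the gene's own strand, from RefSeq on build GRCm38.p6, with the GC box GGGCGG, found on either strand, in capitals.
Col4a1, chr8:11312777-11313076, minus strand: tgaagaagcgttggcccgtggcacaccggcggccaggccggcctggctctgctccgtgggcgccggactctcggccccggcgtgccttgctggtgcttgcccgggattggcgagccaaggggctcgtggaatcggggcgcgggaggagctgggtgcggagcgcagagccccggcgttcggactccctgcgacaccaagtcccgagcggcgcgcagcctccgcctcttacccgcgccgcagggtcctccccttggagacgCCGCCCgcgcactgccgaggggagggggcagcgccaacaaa
Col4a2, chr8:11312555-11312854, plus strand: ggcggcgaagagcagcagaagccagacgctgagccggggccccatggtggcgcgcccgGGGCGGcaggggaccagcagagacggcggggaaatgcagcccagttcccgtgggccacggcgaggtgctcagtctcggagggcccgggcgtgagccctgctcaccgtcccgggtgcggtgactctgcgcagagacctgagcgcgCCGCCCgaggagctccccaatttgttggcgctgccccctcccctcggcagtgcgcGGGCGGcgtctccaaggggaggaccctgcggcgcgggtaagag
Col4a5, chrX:141475169-141475468, plus strand: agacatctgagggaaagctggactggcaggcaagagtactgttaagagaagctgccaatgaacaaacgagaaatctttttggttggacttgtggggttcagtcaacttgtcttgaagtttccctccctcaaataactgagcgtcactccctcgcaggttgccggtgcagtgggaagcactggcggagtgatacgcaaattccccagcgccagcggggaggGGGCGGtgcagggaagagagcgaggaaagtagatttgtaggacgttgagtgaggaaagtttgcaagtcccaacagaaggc
Lama5, chr2:180225810-180226109, minus strand: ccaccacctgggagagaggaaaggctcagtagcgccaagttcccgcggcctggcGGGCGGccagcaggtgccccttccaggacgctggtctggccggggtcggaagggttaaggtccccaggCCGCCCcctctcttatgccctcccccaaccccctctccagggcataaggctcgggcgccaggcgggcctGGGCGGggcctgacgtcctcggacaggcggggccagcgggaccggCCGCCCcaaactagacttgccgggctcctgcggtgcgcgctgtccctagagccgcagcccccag
Itgb8, chr12:119238227-119238526, minus strand: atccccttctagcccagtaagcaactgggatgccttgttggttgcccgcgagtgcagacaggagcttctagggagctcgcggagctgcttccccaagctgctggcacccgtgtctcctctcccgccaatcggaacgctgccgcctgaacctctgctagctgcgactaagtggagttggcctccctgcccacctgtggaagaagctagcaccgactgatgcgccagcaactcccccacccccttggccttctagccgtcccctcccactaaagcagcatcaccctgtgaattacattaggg
The annotated starts of Col4a1 and Col4a2 are 21 bases apart and their windows share 78 bases, while those of Col4a5 and Col4a6 are 1343 bases apart. As annotated, Col4a1 and Col4a2 overlap at their starts. GC boxes numbered 1 in Col4a1, 3 in Col4a2, 1 in Col4a5, 4 in Lama5 and 0 in Itgb8. The Col4a1 box and 1 of the 3 in Col4a2 are the same site, within the shared bases. A GC box stood in 55.2% of 67 windows of 61 member genes and in 35.7% of 32851 windows of all genes. The FoxO-binding motif GTAAACA, searched on both strands, stood in none of the 5 windows shown, in 1 of the 67 member windows (1.49%), that of Col6a1, and in 3.65% of all windows. These matches describe the letters of the windows only.

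Among the collagen IV genes, the alpha 5 chain gene Col4a5 read 169.9, 151 and 159 on FoxO-null 1 to 3, against 137, 125 and 111 on wild-type 1 to 3. All lines labelled FoxO-null lay above all wild-type lines, with means of 160.1 ± 9.30 in lines labelled FoxO-null and 124 ± 12.8 in lines labelled wild-type (SD, n = 3 each) and a log2 fold change of 0.35 ± 0.15 (adjusted limma p 0.457). In its second probe set, at 165, 147 and 155 on FoxO-null 1 to 3, against 107, 148 and 132 on wild-type 1 to 3, the groups overlapped (log2 fold change 0.27 ± 0.16). The neighbouring Col4a6 had a log2 fold change of 0.30 ± 0.26 and Col4a3, a chain gene of kidney basement membranes, one of 0.32 ± 0.40, both with overlapping groups.

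Col4a1 and Col4a2 encode the chains of the most widespread collagen IV. Col4a1 read 335, 385 and 301 on FoxO-null 1 to 3, against 164, 451 and 408 on wild-type 1 to 3, and Col4a2 read 52.0, 52.9 and 65.8 on FoxO-null 1 to 3, against 46.3, 89.1 and 99.3 on wild-type 1 to 3. In both genes wild-type 1 was the lowest of the 6 lines while wild-type 2 and 3 were the highest, and the log2 fold changes were 0.11 ± 0.30 and -0.37 ± 0.28 (limma adjusted p 0.931 and 0.689). Without wild-type 1 they were -0.34 and -0.68, without wild-type 2 0.38 and -0.25, and without wild-type 3 0.30 and -0.17. The second Col4a1 probe set read 133, 148 and 107 on FoxO-null 1 to 3, against 143, 197 and 174 on wild-type 1 to 3: there wild-type 1 was not the lowest line. Its log2 fold change had the other sign, at -0.39 ± 0.17 with overlapping groups (limma adjusted p 0.679 over all probe sets). Across the 6 arrays the log2 values of Col4a1 and Col4a2 had a Pearson r of 0.68 (Spearman rho 0.77) and those of Col4a5 and Col4a6 one of 0.69 (0.83), given as descriptions of 6 arrays that share their scaling.

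Col18a1, which encodes the collagen of basement membranes that releases endostatin, read 145, 151 and 88.9 on FoxO-null 1 to 3, against 267, 179 and 125 on wild-type 1 to 3, a log2 fold change of -0.52 ± 0.27 (adjusted limma p 0.542). The groups overlapped at wild-type 3, and wild-type 1 was the highest line. In the second Col18a1 probe set all lines labelled FoxO-null, at 84.6, 107.5 and 90.4, lay below all wild-type lines, at 213, 133 and 114 (log2 fold change -0.63 ± 0.22, limma adjusted p 0.552 over all probe sets).

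Fibrillar collagens did not move one way. Of 10 tested, 4 had a positive log2 fold change and 6 a negative one, with a median of -0.060. With the arrays centred on their medians these counts were 2 and 8. That centring lowered the median over all genes too, from 0.0099 to -0.058. Col11a2, a chain gene of the cartilage collagen XI, was the member with the largest positive value, at 0.94 ± 0.41 (limma adjusted p 0.458). Its signals were 56.8, 33.9 and 45.2 on FoxO-null 1 to 3, against 20.8, 9.38 and 38.4 on wild-type 1 to 3, low throughout and with FoxO-null 2 under wild-type 3. Its partner gene Col11a1 read 81.5, 114 and 97.6 on FoxO-null 1 to 3, against 141, 99.5 and 87.3 on wild-type 1 to 3, a log2 fold change of -0.14 ± 0.21.

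The cartilage collagen gene Col2a1 read 32.7, 67.2 and 59.1 on FoxO-null 1 to 3, against 5.25, 113 and 156 on wild-type 1 to 3. Its groups overlapped because wild-type 1 stood far below the other wild-type lines, and the log2 fold change was -0.077 ± 0.77 with all lines and -1.29 without wild-type 1 (limma adjusted p 0.152). It was 0.42 without wild-type 2 and 0.64 without wild-type 3. Col5a2, a chain gene of the collagen that nucleates collagen I fibrils, read 267, 257 and 219 on FoxO-null 1 to 3, against 187, 263 and 266 on wild-type 1 to 3, a log2 fold change of 0.063 ± 0.16. Col1a1 and Col1a2, the main bone and skin collagen genes, and Col3a1 had log2 fold changes of 0.067 ± 0.44, -0.081 ± 0.37 and -0.20 ± 0.43, with overlapping groups at signals of at most 81.6. Col27a1, Col5a1 and Col5a3 were at -0.56 ± 0.40, 0.13 ± 0.23 and -0.043 ± 0.29, also with overlapping groups.

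All 4 tested genes of collagens VI and VII had positive log2 fold changes, also with median centring and with quantile normalization, and 0 of them reached an unadjusted limma p under 0.05. Col6a2, a chain gene of the beaded filaments around cells, read 51.8, 72.0 and 65.9 on FoxO-null 1 to 3, against 44.8, 63.2 and 53.8 on wild-type 1 to 3, a log2 fold change of 0.21 ± 0.23. Col6a3 had one of 0.42 ± 0.38, Col6a1 one of 0.68 ± 0.50 and Col7a1, the anchoring fibril gene, one of 0.43 ± 0.36. Col6a1 exceeded background on 2 FoxO-null arrays and 1 wild-type array, and the groups of all 4 genes overlapped.

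Of the fibril-associated collagens, Col9a3, a chain gene of collagen IX, read 358, 379 and 366 on FoxO-null 1 to 3, against 285, 513 and 691 on wild-type 1 to 3. The lines labelled FoxO-null lay close together, between wild-type 1 on one side and wild-type 2 and 3 on the other, and the log2 fold change was -0.34 ± 0.24 with all lines and -0.69 without wild-type 1 (limma adjusted p 0.127). The log2 fold change was -0.27 without wild-type 2 and -0.056 without wild-type 3. The second Col9a3 probe set read 88.8, 124 and 76.6 on FoxO-null 1 to 3, against 136, 137 and 119 on wild-type 1 to 3, with overlapping groups and wild-type 1 among the higher lines (log2 fold change -0.44 ± 0.20, limma adjusted p 0.679 over all probe sets). Col16a1 read 145, 139 and 135 on FoxO-null 1 to 3, against 126, 165 and 118 on wild-type 1 to 3, a log2 fold change of 0.047 ± 0.17. Col12a1 had a log2 fold change of -0.48 ± 0.29 (adjusted limma p 0.61), also with overlapping groups. Col9a1, Col14a1 and Col22a1 were at 0.07 ± 0.30, -0.01 ± 0.36 and 0.21 ± 0.40. These and the transmembrane and other collagens, Col26a1 at 0.41 ± 0.27, Col23a1 at -0.16 ± 0.37 and Col25a1 at -0.14 ± 0.55 among them, had limma adjusted p of 0.638 or more.

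Integrins of the kind that bind laminin and collagen had a negative log2 fold change in all 5 tested genes, between -0.32 and -0.082, and 0 of the 5 reached an unadjusted limma p under 0.05. All 5 stayed negative with quantile normalization. Median centring lowered every log2 fold change alike, so it could not turn one positive. With 1 array left out, Itga3 and Itga6 stayed negative, but the others did not. Itga2 was at 0.093 without FoxO-null 2 and 0.19 without wild-type 3. Itga7 was at 0.012 without wild-type 1 and Itgb1 at 0.0017 without FoxO-null 3. Itgb1, the beta chain shared by most matrix integrins, read 909, 966 and 786 on FoxO-null 1 to 3, against 881, 922 and 1009 on wild-type 1 to 3, a log2 fold change of -0.082 ± 0.12 (adjusted limma p 0.851). Its groups overlapped, and the next brightest of its 6 probe sets gave -0.036 ± 0.13. The only other Itgb1 probe set above background on all arrays had the other sign, at 0.18 ± 0.24. Itga7, the gene of a laminin-binding alpha chain of muscle, read 85.1, 65.7 and 72.9 on FoxO-null 1 to 3, against 91.0, 73.1 and 73.8 on wild-type 1 to 3, a log2 fold change of -0.084 ± 0.20. The collagen receptor gene Itga2 and the laminin receptor gene Itga3 were dim, at -0.11 ± 0.39 and -0.32 ± 0.40. A second, dimmer Itga3 probe set went the other way, with groups that did not overlap. It read 23.0, 20.7 and 33.5 on FoxO-null 1 to 3, against 7.52, 15.7 and 17.0 on wild-type 1 to 3. Its log2 fold change was 0.73 ± 0.44 (limma adjusted p 0.78 over all probe sets). It exceeded background on 2 FoxO-null arrays and 0 wild-type arrays.

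Itga6, the laminin-binding alpha 6 chain gene of neural stem cells, read 695, 692 and 643 on FoxO-null 1 to 3, against 536, 936 and 1086 on wild-type 1 to 3. The log2 fold change was -0.27 ± 0.21 (limma adjusted p 0.694), and the groups overlapped only through wild-type 1, the lowest of the 6 lines. Without wild-type 1 it was -0.57 (limma adjusted p 0.127), without wild-type 2 -0.17 and without wild-type 3 -0.067. In the second Itga6 probe set the lines labelled FoxO-null, at 440.3, 394 and 435, lay below all wild-type lines, at 499, 732 and 799, with a log2 fold change of -0.64 ± 0.16 (adjusted limma p 0.335 over all probe sets).

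Of the integrins that bind fibronectin and other proteins through the RGD motif, Itgb8 had the smallest p. Its protein pairs with the alpha v chain and is known to activate latent TGF-beta. Itgb8 read 835, 946 and 749 on FoxO-null 1 to 3, against 763, 634 and 509 on wild-type 1 to 3, with means of 844 ± 98.7 in lines labelled FoxO-null and 635 ± 127 in lines labelled wild-type (SD, n = 3 each) and a log2 fold change of 0.42 ± 0.15 (adjusted limma p 0.375). FoxO-null 3 lay just under wild-type 1, so the groups overlapped. Its partner gene Itgav read 1299.7, 1244 and 1029 on FoxO-null 1 to 3, against 1194, 1083 and 946 on wild-type 1 to 3, a log2 fold change of 0.15 ± 0.13, and Itgb5, another partner of alpha v, read 620.0, 571 and 561 on FoxO-null 1 to 3, against 507, 515 and 566 on wild-type 1 to 3, a log2 fold change of 0.14 ± 0.11. Neither of these passed the test (limma adjusted p 0.745 and 0.699). The fibronectin receptor genes Itga5 and Itga4 had log2 fold changes of -0.23 ± 0.26 and -0.34 ± 0.39. Dimmer Itga4 probe sets disagreed. In one, under background on all FoxO-null arrays, the groups did not overlap and the log2 fold change was -1.21 ± 0.44 (limma adjusted p 0.569 over all probe sets). In another, under background on every array, the FoxO-null lines were all higher (0.998 ± 0.35, limma adjusted p 0.552 over all probe sets). Itga8, Itga9 and the platelet integrin gene Itga2b were at -0.40 ± 0.38, -0.39 ± 0.35 and 0.088 ± 0.26.

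The symbol rule also took in genes whose products only resemble or bind integrins. Itgb1bp1, which binds the tail of integrin beta 1, read 271, 232 and 245 on FoxO-null 1 to 3, against 243, 196 and 254 on wild-type 1 to 3, a log2 fold change of 0.11 ± 0.14. Itgb3bp, known also as a centromere protein, had one of -0.16 ± 0.26 and the integrin beta 2-like gene Itgb2l one of -0.44 ± 0.68; neither passed. The 6 leukocyte integrin genes, Itgax, Itgal and Itgb7 among them, had no signal over 29.6.

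Differences among lines of 1 group were large for many members. The median within-group SD was 0.40 on the log2 scale over the 55 members tested, against 0.24 over all genes tested, with median log2 levels of 5.97 and 6.98. The SD lay above the upper quartile of all genes in 32 of the 55. Wild-type 1 had the lowest of the 6 signals in 21 members (38.2%), against 19.9% of all genes, and wild-type 3 the highest in 16 (29.1%), against 18.6%. The low members on wild-type 1 included Col4a1, Col4a2, Nid1, Col2a1, Col9a3 and Itga6. In the second probe sets of Col4a1, Col9a3 and Itga6 wild-type 1 was not the lowest line. In the second Nid1 probe set wild-type 1 was again the lowest, at 4.02. That probe set lay under background on wild-type 1 and on all FoxO-null arrays.

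**Figure D3:**
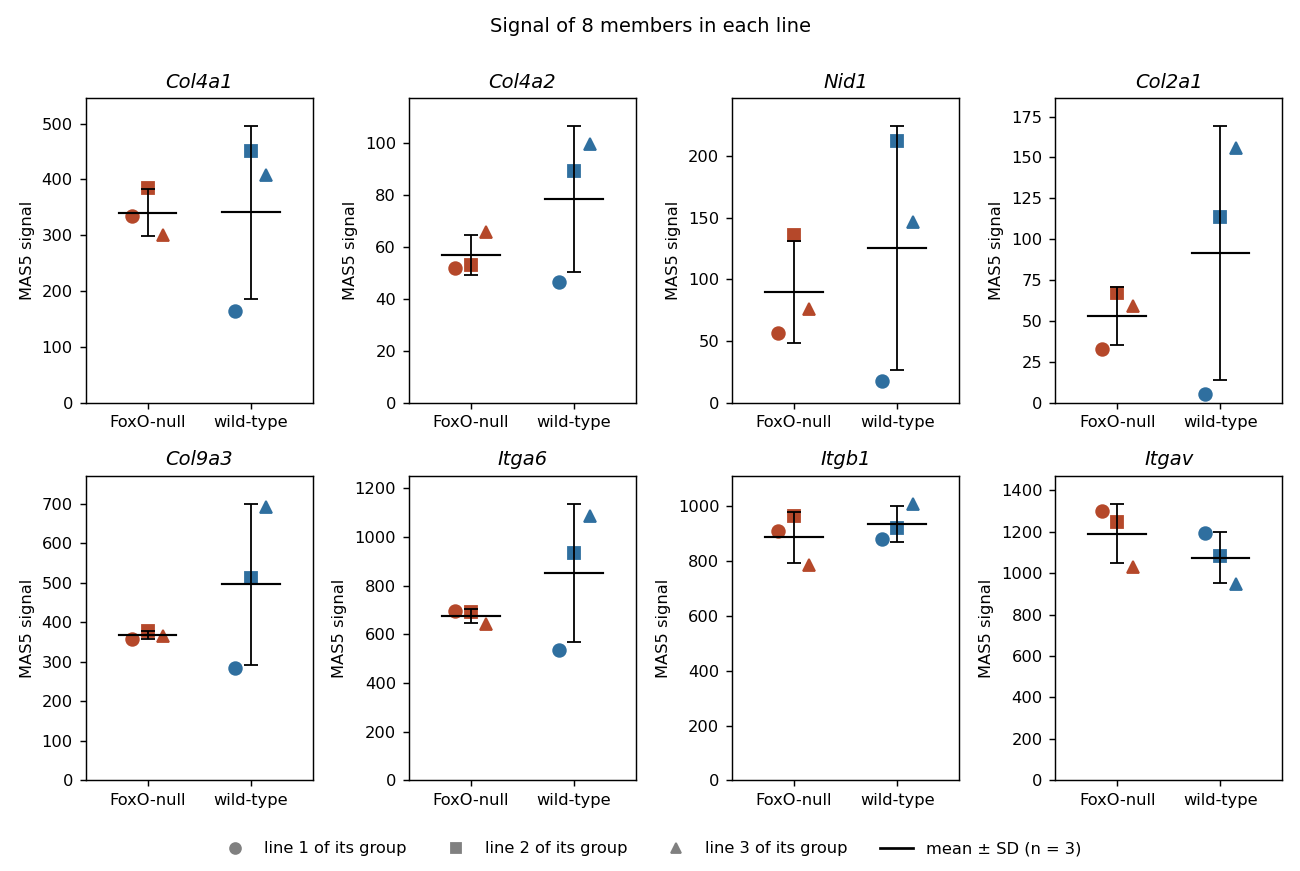
MAS5 signal (y axis, from 0) of 8 members in each line (points), FoxO-null lines to the left of wild-type lines, with the mean ± SD of 3 lines in black. Wild-type 1 (circles) is the lowest of the 6 lines for Col4a1, Col4a2, Nid1, Col2a1, Col9a3 and Itga6, but not for Itgb1 and Itgav.

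Leaving out wild-type 1 gave 11 of 59 tested members lower at an unadjusted limma p under 0.05 (18.6%), against 4.56% of all genes in that fit, and 2 higher (3.39% against 4.95%). The 11 were Lama4, Nid2, Col2a1, Nid1, Col12a1, Col9a3, Col4a2, Itga6, Lamc1, Lama5 and Col4a1, of which 4 were also called with all lines and 6 had their lowest signal on wild-type 1, so that removing it raised the wild-type mean. None passed after adjustment, the lowest limma adjusted p being 0.127. Leaving out any other array gave 1 to 4 members lower. Wild-type 1 also carried the high 18S rRNA control, with 211 for its 5' probe set against 23.5 to 38.9 on the other arrays, while its 3' to 5' signal ratios for the degradation controls, 0.827 for Gapdh and 1.12 for beta-actin, lay within the ranges of the other arrays, 0.789 to 0.928 and 1.03 to 1.12. The part of the rRNA signal in these results was not tested.

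**Figure D4:**
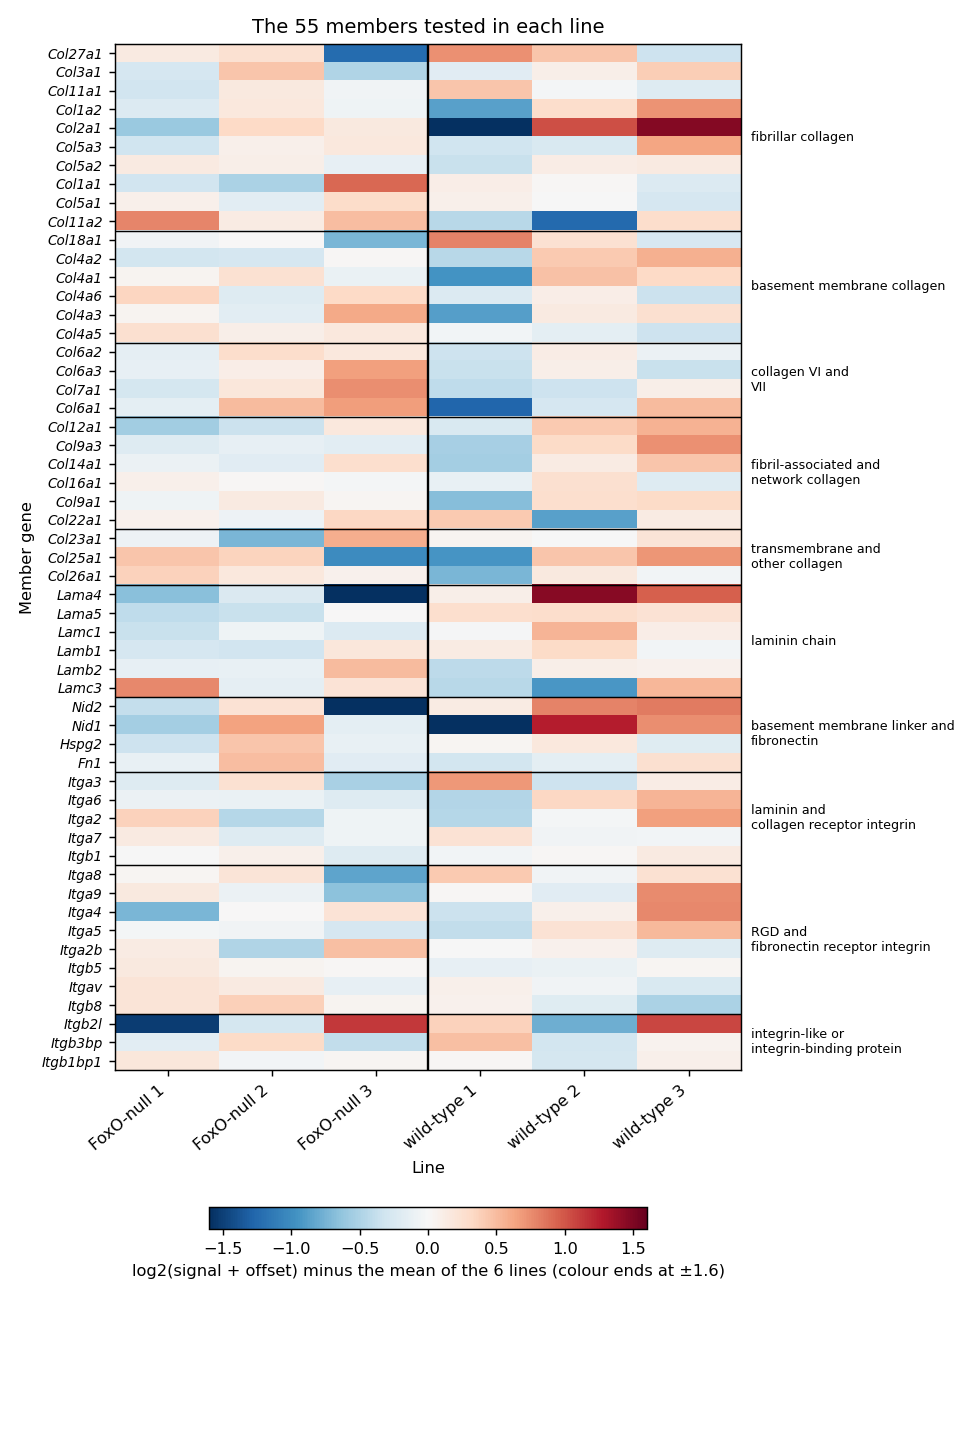
Log2(signal + offset) of each of the 55 members tested (rows, grouped by role) in each of the 6 lines (columns, FoxO-null to the left), as a difference from the gene's mean over the lines, red for higher and blue for lower. The wild-type 1 column is blue in many collagen rows and in Nid1, where wild-type 2 and 3 are red.

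The patterns most like those of the 3 members of smallest p were found by Pearson r of log2 values over the 6 arrays, which share their scaling, among the 55 members, as a description. These 3 were picked for a small p between the groups, so r in part repeats the difference between the groups. Lama4 was most like Nid2 (0.94), Lamc1 (0.86) and Itgb1 (0.71). Lama4 and Nid2 lay under background on all FoxO-null arrays, and both passed the filter only through the wild-type lines. Lama5 was most like Lamb1 (0.83), Col12a1 (0.75) and Lamc1 (0.69). Itgb8 was most like Itgav (0.86) and Col4a5 (0.85), followed by Hspg2 (0.37).

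Markers of other cell types that make matrix were read against the same background levels. Of 12 endothelial markers measured, 1 (Plvap) stood above background on all arrays and Pecam1, Tek and Vwf on none; their summed signal was 190.0 to 295 on FoxO-null arrays and 207 to 277 on wild-type arrays. Of 12 pericyte and smooth muscle markers, 2 were above background on all arrays and 5 on none, with sums of 531 to 574 on FoxO-null arrays and 557 to 563 on wild-type arrays. Of 14 meningeal and fibroblast markers, 1 was above background on all arrays, Pdgfra, which oligodendrocyte precursors also express, and 5 on none, Dcn and Twist1 among them, with sums of 527 to 666 on FoxO-null arrays and 512 to 553 on wild-type arrays. The only marker of that list with an unadjusted limma p under 0.05 was Pdgfra, higher under the FoxO-null label (0.41 ± 0.18, limma adjusted p 0.474). Foxc1, picked after its values were seen and not called (-0.80 ± 0.47, limma adjusted p 0.597), read 18.2, 18.5 and 18.9 on FoxO-null 1 to 3, against 13.8, 70.6 and 45.6 on wild-type 1 to 3, high on the same wild-type lines as Nid1 and Lama4. Of 14 microglia markers, 2 were above background on all arrays and 6 on none, Aif1, Ptprc and C1qa among them (sums of 246 to 332 on FoxO-null arrays and 235 to 283 on wild-type arrays). The choroid plexus and ependyma list had 2 of 11 markers above background on all arrays and 5 on none, Ttr among them, with sums of 336 to 382 on FoxO-null arrays and 226 to 464 on wild-type arrays. In that list Otx2 read 177, 193 and 180.5 on FoxO-null 1 to 3, against 59.1, 274 and 279.6 on wild-type 1 to 3. Otx2, named after its values were seen, was lowest on wild-type 1 as Col4a1 and Col4a2 were. So were 19.9% of all genes tested, and in the second Col4a1 probe set wild-type 1 was not the lowest line. Of the 5 markers tested in the choroid plexus and ependyma list, 2 had a positive log2 fold change and 3 a negative one. Col4a5 and Col4a6 were lowest on wild-type 3. The neural crest and Schwann cell list had 4 of 9 above background on all arrays and 3 on none, Foxd3 among them (sums of 973 to 1219 on FoxO-null arrays and 697 to 1013 on wild-type arrays), and the neuron list had 10 of 13 on all arrays and 0 on none (2471 to 2714 on FoxO-null arrays and 2938 to 3348 on wild-type arrays). The part of other cell types in the members' values was not tested.

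Other genes of matrix and adhesion were read from lists in the same fit, and no gene of these lists passed a limma adjusted p under 0.05. The counts below stand beside the 5.31% of all genes higher and 4.90% lower at an unadjusted p. Of 25 tested glycoprotein genes of the matrix, 2 were higher and 2 lower at an unadjusted limma p under 0.05 (median log2 fold change 0.018). Tnc, the tenascin C gene of the stem cell niche, read 559, 676 and 537 on FoxO-null 1 to 3, against 799, 936 and 710.0 on wild-type 1 to 3 and did not overlap between groups (-0.46 ± 0.14, limma adjusted p 0.281), and Fbn2, a fibrillin gene, was at -0.66 ± 0.18. Matn4, a matrilin gene, was at 0.56 ± 0.22.

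Of 22 genes for collagen synthesis and crosslinking, 0 were higher and 2 lower at that p (median -0.0033). Crtap, a subunit of the complex that hydroxylates collagen prolines, read 241, 236 and 190.0 on FoxO-null 1 to 3, against 282, 356 and 375 on wild-type 1 to 3, with all lines labelled FoxO-null below all wild-type lines (-0.59 ± 0.15, limma adjusted p 0.222). Colgalt2, a collagen galactosyltransferase gene, was at -0.55 ± 0.23 and Plod3, a lysyl hydroxylase gene, at -0.20 ± 0.11.

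Of 25 genes of matrix degradation and its inhibitors, 3 were higher and 1 lower (median 0.064). Mmp14, the membrane-bound metalloproteinase gene, read 383, 445 and 334 on FoxO-null 1 to 3, against 292, 243 and 227 on wild-type 1 to 3, all lines labelled FoxO-null above all wild-type lines (0.60 ± 0.15, limma adjusted p 0.204). Mmp2, the gelatinase gene whose proenzyme the Mmp14 protein activates, read 29.7, 39.4 and 38.5 on FoxO-null 1 to 3, against 45.4, 76.6 and 109.7 on wild-type 1 to 3, with the order turned round (-0.93 ± 0.31, limma adjusted p 0.332). Adam9 was at 0.26 ± 0.11.

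Of 31 genes of the adhesion complex on the inner side of integrins, 3 were higher and 2 lower (median -0.13). Lims2, also called PINCH2, read 183, 111 and 156 on FoxO-null 1 to 3, against 73.8, 85.8 and 105 on wild-type 1 to 3 (0.72 ± 0.21, limma adjusted p 0.281), and the kinase gene Src and the kindlin 2 gene Fermt2, which activates integrins, were at 0.37 ± 0.12 and 0.36 ± 0.12. In these 3 genes of the 31 each FoxO-null line lay above each wild-type line (8.08% of all genes). The 2 lower genes were Zyx and Vcl, the zyxin and vinculin genes, with overlapping groups. In 2 other genes, Vasp (-0.23 ± 0.15) and the talin 2 gene Tln2 (-0.27 ± 0.19), each FoxO-null line lay below each wild-type line (7.93% of all genes), and neither had an unadjusted limma p under 0.05. Of 23 genes for dystroglycan and other matrix receptors, 0 were higher and 1 lower (median -0.0098). That one was the syndecan gene Sdc1, at -0.39 ± 0.14 (limma adjusted p 0.382); Cd151, a tetraspanin that partners laminin-binding integrins, was at 0.23 ± 0.11 and Sgcb, a sarcoglycan gene, at 0.28 ± 0.15.

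Probe sets of 1 gene were compared where they could be. Of 85 members, 52 had several probe sets, and 14 had 2 or more above background on all arrays. In 9 of the 14 those probe sets had log2 fold changes of 1 sign.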

How the data were processed

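Total RNA of 6 mouse neural stem cell lines, 3 labelled FoxO-null and 3 labelled wild-type, was measured on 1 array each, from 6 ug of RNA per the labels' protocols. The authors deposited 1 linear intensity per probe set and array, computed with MAS5 per the submitters' processing notes; the MAS5 version is not given in the sources used here. On every array the mean after trimming 2% at each end was 100, so the deposited scaling was kept. Of 45101 probe sets on the array, 34945 were annotated to 1 gene. The members' symbols were checked by gene number and 0 differed.

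Values were set to log2(signal + 5.94). That offset equals the 20th percentile over all arrays and understates changes of dim genes. A gene was left out if its mean over the arrays fell short of a signal of 16.2, the 40th percentile of the 45037 probe sets that are not controls. The remaining 12663 went into lmFit and eBayes, with a trend on intensity (limma 3.58.1, R 4.3.3, with version 1.17.8 of the data.table package), two-sided, with Benjamini-Hochberg adjustment over all of them, and without covariates. Further probe sets of a gene were read from a fit that held all of these probe sets. Lines count as independent in these p-values because the labels describe them so. Precision is limited by the 6 arrays: the smallest two-sided p of an exact permutation test with 3 lines a group is 0.1. Where a group lay at or under background on all its arrays, a bound on the ratio of the groups' geometric means was taken against the background levels. The procedure was tested on simulated data with independent normal noise. These had neither a trend of spread with intensity nor an array that stood apart as wild-type 1 did.

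The members and lists were chosen with earlier results of these data known. The rule for named genes took members with an unadjusted p under 0.05, up to 3 members of highest signal per role, the linker genes, Itgb1, Itga6, Lamb1, Lamc1, Col4a1, Col4a2, and up to 3 genes of smallest p per related list. The other members, second probe sets, Foxc1, Otx2, Zyx, Vcl, Vasp, Tln2, Pdgfra and the neural stem cell markers called were named after their values were seen. Integrin-like genes were put in a class of their own after the values were seen. Alternatives were other offsets, no filter, median centring, quantile normalization, every probe set, no trend, the replicate number as a block and leaving out each array.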

Additional observations from a re-analysis of the deposited data

How the results depend on the processing

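No member passed the adjusted threshold under any alternative run, and the 7 members with an unadjusted limma p under 0.05 kept the sign of their log2 fold change in every alternative that gave a value; Lama4 was too dim to be tested without wild-type 2 or without wild-type 3. The 5 genes past the threshold over all genes became 1 with an offset of 1, 1 without the filter on dim probe sets, 1 with quantile normalization, 1 with every probe set tested, 0 with median centring and 0 without the intensity trend, and ranged between 0 and 13 when 1 array was left out. Of the members at an unadjusted p under 0.05, the 3 higher became 1 with median centring and 1 to 2 with an array left out, and the 4 lower became 1 to 11 with an array left out: 2 when FoxO-null 1 was dropped, 11 when wild-type 1 was and 1 when wild-type 2 was. The cause was not tested. The members' median log2 fold change lay between -0.13 and 0.050 with an array left out. With every probe set tested, 5 of 174 member probe sets were higher and 12 lower at an unadjusted p, and 0 passed after adjustment. Many of the 174 share a gene or lie under background. The share over all probe sets of that fit is not given, so these counts show no lean of the members. Replicate numbers are shared by both groups, but same-numbered arrays hardly deviated together (correlations of deviations of 0.023, 0.092 and 0.12). With the replicate number as a block, 6 genes passed the threshold, 0 of them members, and 2 members were higher and 6 lower at an unadjusted p. The share of all genes called in each direction in the block fit is not given beside them. Members near or under background, such as Lama4 and Nid2, are limited by signal over background.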
